A study of Homo sapiens with 6 samples.

Results

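The integrated stress response and the cytosolic aminoacyl-tRNA synthetases, many of them among its targets, were examined here as 37 of the 60719 genes quantified in human pluripotent stem cells (hPSCs). The members were listed by name and matched to gene identifiers by symbol in GENCODE; no threshold on measured values chose them, although earlier results of these data were known. 18 of them belong to the stress response: 6 transcription factors (ATF4, ATF3, ATF5, DDIT3, CEBPB and CEBPG), 4 ATF4 target genes (ASNS, TRIB3, CHAC1 and SESN2), 6 amino acid transporter genes (SLC7A11, SLC7A5, SLC7A1, SLC3A2, SLC38A2 and SLC6A9) and 2 genes of the endoplasmic reticulum stress response (XBP1 and HERPUD1). The other 19 encode cytosolic synthetases, 7 of them in the multisynthetase complex. By GEO's labels the cells of every library were H1 and H9, established lines of human embryonic origin; the study's methods also name induced pluripotent stem cells for its experiments in general. There were 3 libraries from simulated microgravity (sµg) and 3 from normal gravity (1g), called matched controls in the methods, and the sources used here do not say which line gave which library or what was matched. By the study's methods, cells in both groups were seeded as single cells with a ROCK inhibitor on Matrigel in chamber slides with StemFlex medium and kept for 96 h, the sµg slides filled completely with medium and rotated on a clinostat, the 1g slides static. Filling and rotation therefore cannot be told apart from sµg itself. A clinostat is a device that keeps cultures turning so that no direction stays down.

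In the integrated stress response, kinases that sense amino acid shortage, misfolded protein, viral RNA or lack of heme phosphorylate the initiation factor eIF2, which lowers translation in general and raises translation of the ATF4 message. ATF4 then activates genes for amino acid synthesis and import, for tRNA charging and, with DDIT3 (CHOP), for cell death under lasting stress. ATF4 protein is set largely by translation, so the RNA measured here is no reading of ATF4 protein or of eIF2 phosphorylation. Aminoacyl-tRNA synthetases join each amino acid to its tRNA, and many of their genes are ATF4 targets.

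Each library held 19971097 to 28506848 expected counts, with every 1g library deeper than every sµg library. Values are given as CPM, expected counts scaled to a common library size with TMM factors, or as TPM, which also divides by transcript length and is the scale used to compare genes with each other. sµg replicate 3 stood apart from the other sµg libraries: the chi-square per degree of freedom over genes was 5.91 to 6.2 in its pairs and 1.66 to 2.25 in the other pairs of replicates. The pluripotency markers POU5F1, NANOG and SOX2 did not pass the test, with log2 fold changes of 0.02, −0.08 and 0.01. The summed level of 10 pluripotency markers ranged from 12685 to 12967 CPM under 1g and from 10088 to 10224 CPM under sµg. Only 3 of the 10 were called, all lower, where 18.2% of all genes tested were lower, and these 3 carried most of that fall. Mean CPM went from 3156 in 1g to 1891 in sµg for PODXL, 2543 to 1797 for DNMT3B and 2792 to 2162 for LIN28A. The summed level of 17 genes listed as markers of differentiated cells was 215 to 220.0 CPM in 1g and 142 to 145 CPM in sµg. Of the 14 tested, 9 were lower and 1, OTX2, was higher (log2 fold change 0.14, edgeR adjusted p = 0.00655). Over all genes tested 18.2% were lower and 15.5% higher. OTX2 alone held a mean of 108 CPM of that sum in 1g and 120 CPM in sµg, so the sum understates the fall of the other listed genes together. At a mean of 85.1 TPM in 1g OTX2 was the most abundant of the 17, and its rise is not read as one of differentiated cells. HAND1, GATA6 and SOX17 were at 0 in at least 1 library. Both sums were lower in sµg, while the members described below moved both ways, and the part of these markers in those results was not tested. In bulk RNA, fewer cells of a type and less RNA per cell cannot be told apart.

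More of the stress response genes were lower than higher in sµg, and the synthetases moved both ways. 10 of the 18 stress response genes were lower and 1, ASNS, was higher at an adjusted p under 0.05 in the edgeR quasi-likelihood fit (Benjamini-Hochberg over the 16763 genes tested), against 18.2% of all genes lower and 15.5% higher. Their median log2 fold change was −0.18, with 0.01 over all genes. Of the 19 synthetase genes, 6 were higher and 4 lower, with a median of 0.02. All 37 members passed the filter on low counts. Every sµg library lay below every 1g library for 16 members, 11 of them stress response genes, and above for 7, where 23.7% and 21.8% of all genes did so. Since nothing says that each library is a culture of its own, p-values here speak only for variation among these 6 libraries, part of which may be technical. The summed TPM of the 18 stress response genes was 2111, 2088 and 2109 in the 1g libraries and 2038, 2034 and 2001 in the sµg libraries, with no overlap, while that of the 19 synthetases overlapped (2768, 2835 and 2769 in 1g and 2984, 2901 and 2722 in sµg). Within the stress response the transporters, the most abundant group, had the largest absolute difference in summed level, from 909 ± 5.14 to 860.4 ± 24.8 TPM (SD, n = 3 each). For its level the fall was larger in the 2 endoplasmic reticulum genes, from 151 ± 6.40 to 136 ± 4.52 TPM. The transcription factors, of which ATF4 makes up most, stood at 666 ± 14.9 and 665 ± 7.35 TPM. Without sµg replicate 3, 1 stress response gene was higher and 11 were lower, and 7 synthetases were higher and 4 lower. In that run 6191 of 17045 genes were called in either direction, against 2591 higher and 3057 lower of 16763 with all libraries. The 10 lower stress response genes were 8 with DESeq2 and 6 with limma on log2(TPM + 1), and with limma 3 synthetases were higher and 1 was lower. Calls over all genes also changed, to 3873 of 30862 with DESeq2 and 2954 of 16763 with limma.

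**Figure D1:**
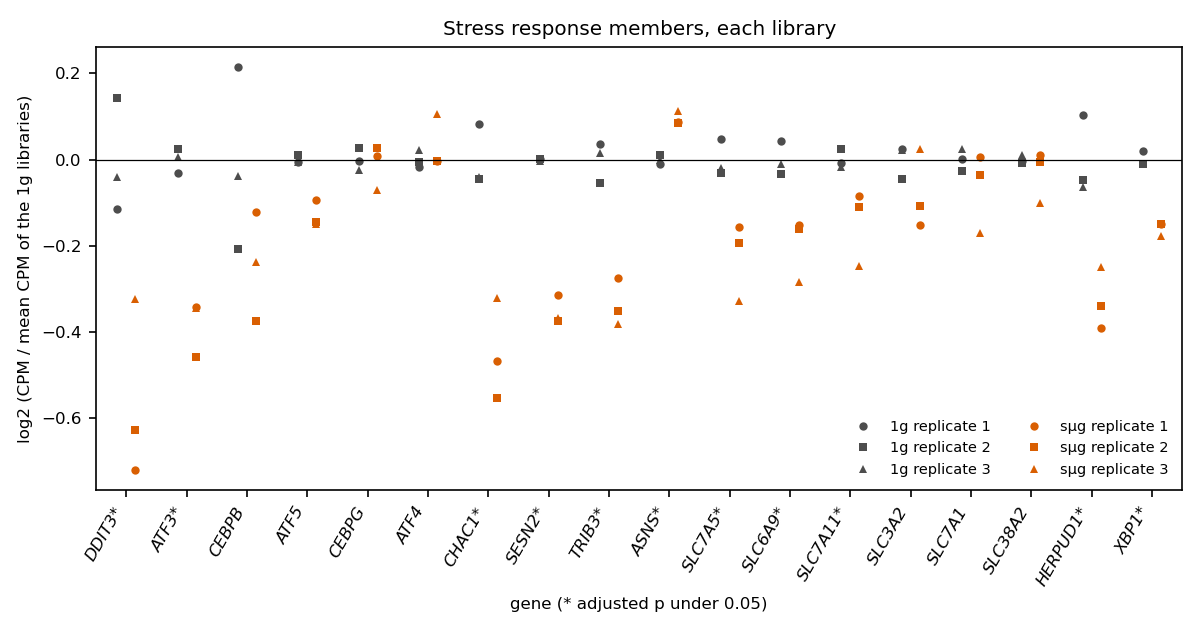
CPM of the 18 stress response genes, drawn library by library on a log2 axis where 0 is the gene's 1g mean (grey points are 1g, orange points sµg, one marker shape per replicate number, no error bars since every library is drawn). Genes are ordered as transcription factors, ATF4 targets, transporters and endoplasmic reticulum genes, an asterisk marks an adjusted p under 0.05, and the sµg points of DDIT3, ATF3, CHAC1, SESN2, TRIB3 and HERPUD1 lie below all 1g points while those of ATF4 overlap them.

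ATF4 and its partners bind composite sites in their target genes, and the core of that site, TGATGNAA, was searched for on both strands of 51 promoters of 33 members, taken from RefSeq (GRCh38.p14) from 250 bases before to 50 after each annotated start. It stood in 14 of these promoters (27.5%), each of a different gene, and in 3.62% of all 35116 promoters of the same length. 7 of the 14 genes were stress response members and 7 synthetases, and 4 were called lower, 3 higher and 7 neither. The 5 members with a match wholly before the start and a call are shown, smallest p first, because 4 of them were lower and 1 was higher. The match is in capitals, read on the strand of the gene, with up to 50 bases on each side (11 where an annotated first exon of another transcript covers the match).
CHAC1, chr15:40953251-40953280, plus strand: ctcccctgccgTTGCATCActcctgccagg
ATF3, chr1:212565166-212565273, plus strand: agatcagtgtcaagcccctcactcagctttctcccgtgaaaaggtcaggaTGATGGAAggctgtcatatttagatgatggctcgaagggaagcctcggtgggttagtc
HERPUD1, chr16:56931916-56932023, plus strand: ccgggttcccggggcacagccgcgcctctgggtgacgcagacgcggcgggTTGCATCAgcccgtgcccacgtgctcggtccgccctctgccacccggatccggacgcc
AARS1, chr16:70289675-70289704, minus strand: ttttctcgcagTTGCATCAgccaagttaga
ASNS, chr7:97872458-97872487, minus strand: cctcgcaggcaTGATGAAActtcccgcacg
CHAC1, HERPUD1 and AARS1, all lower in sµg, carry the same 8 letters on the opposite strand, starting 209, 176 and 187 bases before the start, and ASNS, which was higher, carries a forward match with another letter at N 68 bases before it. Strand did not separate the calls: ATF3, lower, has a forward match, and MARS1, higher, has one on the opposite strand, across the start. The ATF3 match begins 191 bases before the upstream start of the gene, whereas ATF3-202, the transcript that took 82.1% of ATF3 counts in 1g, starts 43354 bases further downstream. A match of letters is a description and not a binding site.

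Per length, ATF4 was the most abundant of the 18 stress response RNAs, at 529.7 ± 4.65 TPM in 1g (SD, n = 3), and CEBPB the least, at 8.20 ± 1.24 TPM. Among the transcription factors, DDIT3 and ATF3 were lower and ATF4 was not. ATF4 (chr22:39519695-39522683, GRCh38 coordinates from GENCODE 44 here and for the genes that follow) had 558, 563 and 574 CPM in the 1g libraries and 563, 563 and 608 CPM in the sµg libraries (log2 fold change 0.03, standard error 0.0383, edgeR adjusted p = 0.542). The groups overlapped, with sµg replicate 3 the highest of the 6 libraries, and without it the log2 fold change was 0.00067 (edgeR adjusted p = 0.985). On the TPM scale every sµg value (552 to 565) lay above every 1g value (527 to 535), and limma on log2(TPM + 1) gave an adjusted p of 0.163. DDIT3, the factor known as CHOP, had 14.3, 17.1 and 15.1 CPM in the 1g libraries and 9.42, 10.04 and 12.4 CPM in the sµg libraries and fell to the greatest extent of the members (log2 fold change −0.54, standard error 0.101, edgeR adjusted p = 0.000466). Each sµg library lay below each 1g library, and sµg replicate 3 was nearest to the controls. ATF3, a factor induced by ATF4 and by other stress signals, had 40.0, 41.6 and 41.0 CPM in the 1g libraries and 32.3, 29.8 and 32.2 CPM in the sµg libraries (log2 fold change −0.38, standard error 0.0525, edgeR adjusted p = 1.95e-05), again with no overlap. ATF5, a relative of ATF4 that is also controlled by translation, was below the 1g libraries in every sµg library without passing the test (log2 fold change −0.13, edgeR adjusted p = 0.0573). CEBPB overlapped between the groups (log2 fold change −0.25, edgeR adjusted p = 0.0912) and passed the test only when 1g replicate 2 was left out (edgeR adjusted p = 0.0359). CEBPG, which pairs with ATF4 on its sites, had 74.4 ± 1.31 CPM under 1g against 73.9 ± 2.59 CPM under sµg (SD, n = 3 each; log2 fold change −0.01, edgeR adjusted p = 0.873).

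DDIT3 lies at chr12:57516588-57521737 on the minus strand and shares 982 bases of its span with MARS1 on the plus strand, a member with a mean of 389 CPM, and 1028 with MBD6. The methods give RSEM default settings, which ignore strand, and so a read from the overlap could belong to either gene. MARS1 was higher in sµg (0.14) and DDIT3 lower (−0.54). ATF5 likewise overlaps NUP62 by 1063 bases, and SLC6A9 overlaps CCDC24 by 5029 bases. 13 members overlapped a tested gene, 6 of them one with more than 10% of the member's level, and the named pseudogenes of 12 members were each at 0.0782 CPM or less.

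3 of the 4 ATF4 target genes were lower and ASNS was slightly higher. CHAC1, which encodes an enzyme that degrades glutathione, had 116, 106 and 106 CPM in the 1g libraries and 79.2, 74.6 and 87.6 CPM in the sµg libraries (log2 fold change −0.45, standard error 0.0544, edgeR adjusted p = 1.13e-05). SESN2, a leucine sensor that restrains mTORC1, had 75.4, 75.5 and 75.1 CPM in the 1g libraries and 60.6, 58.1 and 58.5 CPM in the sµg libraries (log2 fold change −0.35, standard error 0.0415, edgeR adjusted p = 2.91e-06). It had the smallest p of the members. TRIB3, a pseudokinase that holds back ATF4 activity, had 28.8, 27.1 and 28.4 CPM in the 1g libraries and 23.2, 22.0 and 21.6 CPM in the sµg libraries (log2 fold change −0.34, standard error 0.0593, edgeR adjusted p = 0.000234). CHAC1 had its highest value of sµg in replicate 3, as DDIT3 did, and in all 3 genes the highest sµg library was below the lowest 1g library. ASNS, asparagine synthetase, a classical ATF4 target, had 264, 268 and 266 CPM in the 1g libraries and 282, 282 and 288 CPM in the sµg libraries (log2 fold change 0.09, standard error 0.034, edgeR adjusted p = 0.0382). Its groups did not overlap either, but the call is narrow: the adjusted p from edgeR was 0.133, 0.09 and 0.118 without 1g replicates 1, 2 and 3, 0.0767 and 0.0755 without sµg replicates 1 and 2, 0.104 with no filter on low counts and 0.0973 with an offset for effective gene length.

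The transporter genes that passed the test were all lower in sµg. SLC7A5, the light chain of the LAT1 exchanger of large neutral amino acids, had 599, 567 and 572 CPM in the 1g libraries and 520.0, 506 and 461 CPM in the sµg libraries (log2 fold change −0.22, standard error 0.0434, edgeR adjusted p = 0.000584). SLC6A9, a glycine transporter, had 41.1, 39.0 and 39.6 CPM in the 1g libraries and 35.9, 35.7 and 32.7 CPM in the sµg libraries (log2 fold change −0.20, standard error 0.0532, edgeR adjusted p = 0.00714). SLC7A11, the cystine importer that feeds glutathione synthesis, had 106, 108 and 105 CPM in the 1g libraries and 100.1, 98.3 and 89.5 CPM in the sµg libraries (log2 fold change −0.14, standard error 0.0442, edgeR adjusted p = 0.0167). sµg replicate 3 was the lowest library for each of these 3 genes, and none of them overlapped between groups. The SLC7A11 call was lost without 1g replicate 1 (edgeR adjusted p = 0.0507) and without 1g replicate 2 (edgeR adjusted p = 0.0784), and with DESeq2 both SLC7A11 (adjusted p = 0.0599) and SLC6A9 (adjusted p = 0.0579) missed the threshold. With limma on log2(TPM + 1) the calls of SLC7A5, SLC6A9 and SLC7A11 were all lost (adjusted p = 0.0521, 0.111 and 0.454), and that of SLC7A11 also with an offset for effective gene length (edgeR adjusted p = 0.129). SLC3A2, the heavy chain shared by SLC7A5 and SLC7A11, overlapped between the groups (log2 fold change −0.08, edgeR adjusted p = 0.187) with sµg replicate 3 (444.4 CPM) level with 1g replicate 1 (444.3 CPM), and without sµg replicate 3 it was lower (−0.13, edgeR adjusted p = 0.000133). SLC7A1, which carries arginine and lysine, and SLC38A2, which carries small neutral amino acids, overlapped and did not pass (−0.07 and −0.03, edgeR adjusted p = 0.256 and 0.563).

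Both genes of the endoplasmic reticulum response were lower in sµg. HERPUD1, a membrane protein of the pathway that clears misfolded proteins, had 34.1, 30.7 and 30.3 CPM in the 1g libraries and 24.2, 25.0 and 26.7 CPM in the sµg libraries (log2 fold change −0.33, standard error 0.0626, edgeR adjusted p = 0.00047). XBP1, a transcription factor of the unfolded protein response, had 144, 140.5 and 140.5 CPM in the 1g libraries and 128, 128 and 125 CPM in the sµg libraries (log2 fold change −0.16, standard error 0.036, edgeR adjusted p = 0.00228). Neither gene overlapped between the groups. The XBP1 call did not hold with an offset for effective gene length (edgeR adjusted p = 0.0589) or with limma on log2(TPM + 1) (adjusted p = 0.198). The promoter of XBP1 was the only one of the 51 with CCAAT and CCACG separated by 9 bases, the letters of the endoplasmic reticulum stress response element, which stood in 0.0769% of all promoters.

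XBP1 RNA is activated by the kinase and nuclease IRE1, which removes a 26-base intron in the cytoplasm. It is shown here as the annotation places it, because its absence is what marks the spliced form, in capitals with 20 bases of exon on each side (GENCODE 44, GRCh38, minus strand). The capitals open with a G and another G follows them. A gap shifted along by that base leaves the same spliced sequence, so the capitals do not fix where IRE1 cuts.
XBP1, chr22:28796108-28796173: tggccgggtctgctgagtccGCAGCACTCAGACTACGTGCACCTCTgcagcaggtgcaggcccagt
The annotated transcript that lacks these bases, XBP1-202, took 2.73, 1.71 and 3.44% of XBP1 counts in the 1g libraries and 2.62, 5.21 and 3.76% in the sµg libraries. The means were 2.63% ± 0.870 and 3.86% ± 1.301 (SD, n = 3 each), the groups overlapped, and the difference of 1.24 percentage points was within the spread of the libraries; an exact permutation test of 3 against 3 cannot go below p = 0.1. Each share rests on 49.6 to 134 counts assigned to that transcript.

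The 19 cytosolic synthetases split in direction, and the split differed in count between the multisynthetase complex and the free enzymes. 4 of the 7 complex members were higher and 1 was lower, with a median log2 fold change of 0.14. Of the 12 others, 2 were higher and 3 lower, with a median of −0.02. Over all genes 15.5% were higher and 18.2% lower, and the counts of the 12 others were near these shares. The contrast thus rests on the 7 complex genes, and the difference between the 2 groups was not tested. The largest rises were in free enzymes. NARS1, the asparaginyl-tRNA synthetase, had 249.6, 249 and 247 CPM in the 1g libraries and 301, 292 and 295 CPM in the sµg libraries (log2 fold change 0.25, standard error 0.0342, edgeR adjusted p = 1.4e-05). FARSB, the beta subunit of the phenylalanyl enzyme, had 80.8, 78.9 and 77.9 CPM in the 1g libraries and 93.4, 95.9 and 95.8 CPM in the sµg libraries (log2 fold change 0.26, standard error 0.0392, edgeR adjusted p = 4.4e-05). In both genes all sµg libraries lay above all 1g libraries by more than the range within either group. FARSA, the alpha subunit of the same enzyme, overlapped between the groups (94.9 ± 3.02 CPM under 1g against 99.9 ± 5.87 CPM under sµg, SD, n = 3 each; log2 fold change 0.07, edgeR adjusted p = 0.232). On the TPM scale FARSA stood at 79.9 ± 2.74 and FARSB at 15.6 ± 0.345 in 1g.

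In the complex, KARS1, the lysyl enzyme, had 239, 233 and 227 CPM in the 1g libraries and 262, 256 and 264 CPM in the sµg libraries (log2 fold change 0.16, standard error 0.0355, edgeR adjusted p = 0.00173). MARS1, the methionyl enzyme, had 371, 368 and 371 CPM in the 1g libraries and 404, 411 and 409 CPM in the sµg libraries (log2 fold change 0.14, standard error 0.0338, edgeR adjusted p = 0.00324). Neither gene overlapped between groups. RARS1, the arginyl enzyme, and EPRS1, which joins glutamyl and prolyl activities, also rose (0.17 and 0.14, edgeR adjusted p = 0.00397 and 0.0118). sµg replicate 3 was the nearest to the controls in both. With an offset for effective gene length the calls of MARS1 and RARS1 were lost (edgeR adjusted p = 0.256 and 0.0703), and so were those of EPRS1 and QARS1 (edgeR adjusted p = 0.118 and 0.26), and all 4 calls were lost with limma on log2(TPM + 1) too. The EPRS1 call was lost without 1g replicate 1, 1g replicate 3, sµg replicate 1 or sµg replicate 2 (edgeR adjusted p between 0.0527 and 0.0839). IARS1, the isoleucyl enzyme, overlapped (log2 fold change 0.04, edgeR adjusted p = 0.426) and was higher without sµg replicate 3 (edgeR adjusted p = 0.00268). QARS1, the glutaminyl enzyme, was the complex member that fell (log2 fold change −0.11, edgeR adjusted p = 0.0199), and it missed the threshold without 1g replicate 2, 1g replicate 3 or sµg replicate 2 (edgeR adjusted p between 0.0883 and 0.105).

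SARS1 and AARS1 were the free enzymes that fell most. SARS1, the seryl enzyme, had 166, 168 and 173 CPM in the 1g libraries and 143, 137 and 143 CPM in the sµg libraries (log2 fold change −0.26, standard error 0.037, edgeR adjusted p = 2.51e-05). AARS1, the alanyl enzyme, at chr16:70251983-70289707 on the minus strand, had 345, 357 and 357 CPM in the 1g libraries and 316, 319 and 310.2 CPM in the sµg libraries (log2 fold change −0.16, standard error 0.0349, edgeR adjusted p = 0.00142). The AARS1 call was lost with limma on log2(TPM + 1) (adjusted p = 0.0598). For both genes the highest sµg library was below the lowest 1g library. WARS1, the tryptophanyl enzyme, was lower (log2 fold change −0.12, edgeR adjusted p = 0.019), a call that was lost without 1g replicate 1, 1g replicate 3 or sµg replicate 2 (edgeR adjusted p between 0.0618 and 0.102), as well as with the effective length offset (edgeR adjusted p = 0.215) and with limma on log2(TPM + 1) (adjusted p = 0.556). YARS1, the tyrosyl enzyme, did not overlap between groups and missed the threshold (log2 fold change −0.09, edgeR adjusted p = 0.0789). The synthetases with the 2 largest p were HARS1 and LARS1. HARS1, the histidyl enzyme, had 73.4, 74.2 and 76.8 CPM in the 1g libraries and 74.5, 71.8 and 75.0 CPM in the sµg libraries (log2 fold change −0.02, standard error 0.0416, edgeR adjusted p = 0.756), and LARS1, the leucyl enzyme, had 392, 401 and 398 CPM in the 1g libraries and 409, 406 and 391 CPM in the sµg libraries (log2 fold change 0.02, standard error 0.0352, edgeR adjusted p = 0.742). CARS1, GARS1, TARS1 and VARS1 also overlapped between groups, with log2 fold changes from −0.09 for GARS1 to 0.02 for TARS1 and an edgeR adjusted p of 0.136 or more. GARS1 and VARS1 were lowest in sµg replicate 3. On the TPM scale, TARS1 was the most abundant synthetase RNA at 302 ± 3.13 TPM in 1g and FARSB the least.

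**Figure D2:**
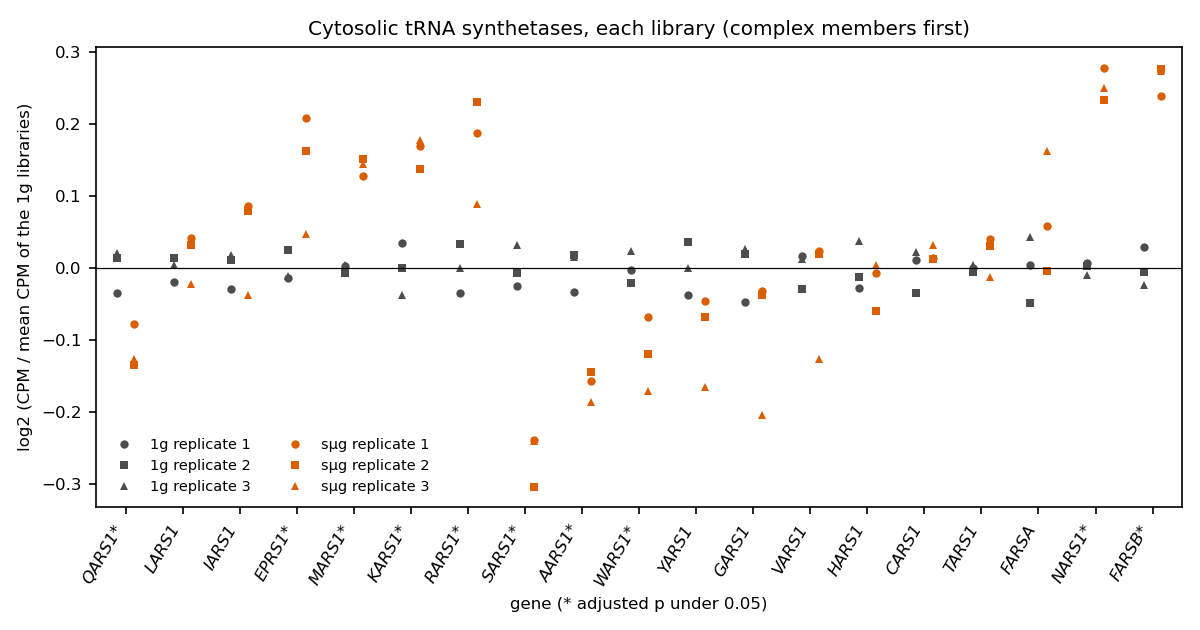
CPM of the 19 cytosolic synthetase genes, drawn library by library on a log2 axis where 0 is the gene's 1g mean (grey points are 1g, orange points sµg, one marker shape per replicate number). The 7 genes of the multisynthetase complex come first, an asterisk marks an adjusted p under 0.05, and the sµg points of NARS1 and FARSB lie highest and those of SARS1 lowest.

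At the level of transcripts, 7 of the 287 member transcripts tested were called (3 higher and 4 lower), where 1.76% of the 53807 transcripts tested were. RSEM divides reads among transcripts that share most of their bases, so a transcript count is less certain than the count of its gene. AARS1 has 42 annotated transcripts in the tables, of which 32 had counts and 20 were tested. AARS1-201, the main coding transcript, took 75.4, 78.9 and 76.8% of the gene in the 1g libraries and 75.7, 76.8 and 74.9% in the sµg libraries (log2 fold change −0.20, standard error 0.0433, edgeR adjusted p = 0.105 over all transcripts), and the coding AARS1-215 and the intron-retaining AARS1-214 took 7.40% and 5.31% in 1g and 7.69% and 5.40% in sµg. The shares of these 3 transcripts overlapped between the groups. AARS1-216, annotated as a target of nonsense-mediated decay, was the 1 AARS1 transcript called (edgeR adjusted p = 0.0486). AARS1-216 had 0 counts in each 1g library and 50.7, 38.0 and 18.6 in the sµg libraries, 42.5-fold higher against a floor of 3 counts over the 1g group. That floor covers counting error only and not the division of reads among transcripts, so it sets no lower limit on the fold change. It made up 0.551% ± 0.241 of AARS1 in sµg (SD, n = 3), and the call was lost whichever library was left out. AARS1-226, another transcript of that class, had 67.1 counts in 1g replicate 2 and 0 in the other 5 libraries, and did not pass the filter on low counts. AARS1-216 differs from AARS1-201 in lacking the last 20 bases of an internal exon, shown in capitals with the 20 bases before them (GENCODE 44, GRCh38, minus strand).
AARS1, chr16:70258033-70258072: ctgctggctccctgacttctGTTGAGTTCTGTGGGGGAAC
It also starts 51 bases further upstream and ends 7 bases earlier.

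LARS1 and XBP1 each had a transcript that fell by more than its gene. LARS1-201 took 33.5, 30.1 and 30.7% of the gene in the 1g libraries and 23.1, 21.1 and 23.2% in the sµg libraries (log2 fold change −0.48, standard error 0.0566, edgeR adjusted p = 0.0204 over all transcripts), while LARS1 as a gene had a log2 fold change of 0.02. LARS1-208 was at 32.1% ± 3.93 in 1g and 36.4% ± 1.21 in sµg (SD, n = 3 each). The 2 coding transcripts share 29 exons. LARS1-201 has a further exon of 119 bases at chr5:146177547-146177665 and extends 877 bases further at its end. XBP1-201 took 68.3, 73.1 and 66.6% of the gene in the 1g libraries and 54.2, 59.0 and 63.2% in the sµg libraries (log2 fold change −0.41, standard error 0.0604, edgeR adjusted p = 0.038 over all transcripts). XBP1-204, which starts at another first exon, took 21.2, 15.2 and 21.2% of the gene in the 1g libraries and 34.8, 28.5 and 24.4% in the sµg libraries and did not pass the test (edgeR adjusted p = 0.439). SARS1-201 and SESN2-201 were called lower and FARSB-201 and NARS1-201 higher, each holding 89.9% or more of its gene in 1g and moving as the gene did. WARS1-201, a minor coding transcript, took 12.98, 12.98 and 11.7% of the gene in the 1g libraries and 9.59, 7.63 and 7.55% in the sµg libraries without passing the test (edgeR adjusted p = 0.071).

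**Figure D3:**
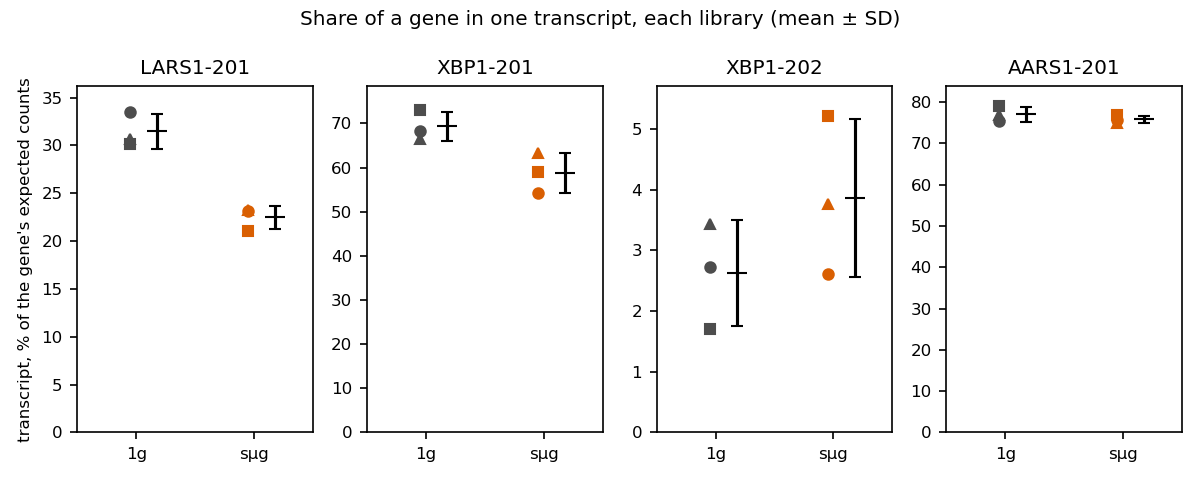
Share of a gene's expected counts in 1 transcript, in percent, for each 1g (grey) and sµg (orange) library, with the group mean and SD (n = 3) beside the points and every axis starting at 0. The shares of LARS1-201 and XBP1-201 are lower in all sµg libraries, those of XBP1-202, the form without the 26-base intron, overlap, and AARS1-201 stays near 75.8% to 77.0%.

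The rest of the pathway was read from lists of genes that are not members. Of 21 other ATF4 target genes tested, 12 were lower and 1, the tRNA exporter gene XPOT, was higher, beside 18.2% and 15.5% of all genes. Their median log2 fold change was −0.12. Those with the smallest p were STC2, a secreted glycoprotein (−0.51), DDIT4, an inhibitor of mTORC1 (−0.53), JDP2, a partner of ATF3 in DNA binding (−0.67), and VLDLR, a lipoprotein receptor (−0.44), each with an edgeR adjusted p of 5.35e-07 or less and no overlap between groups. Among 16 genes of eIF2, its kinases and their partners, its exchange factor and its phosphatases, 3 were higher and 1 was lower, beside the 15.5% and 18.2% of all genes, with a median of 0.03. EIF2AK3, which encodes the kinase PERK, rose (log2 fold change 0.26, edgeR adjusted p = 0.0013), as did EIF2AK4, which encodes GCN2 (log2 fold change 0.12, edgeR adjusted p = 0.0369), and EIF2S2, the beta subunit of eIF2 (log2 fold change 0.14, edgeR adjusted p = 0.0051). The groups overlapped for EIF2AK4 and not for EIF2AK3 or EIF2S2. PPP1R15A, which encodes the stress-induced phosphatase subunit GADD34 and is itself an ATF4 and DDIT3 target, fell (log2 fold change −0.34, edgeR adjusted p = 0.00216).

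Of 18 other genes of the endoplasmic reticulum response, the chaperone gene HSP90B1 was higher (0.16), DNAJB9 was lower (−0.28) and 16 did not pass. The shares over all genes were 15.5% higher and 18.2% lower, and the median of these 18 genes was 0.06. HSPA5, the chaperone BiP, and ERN1, which encodes IRE1, did not pass, with log2 fold changes of 0.04 and 0.32 (edgeR adjusted p = 0.411 and 0.0728), nor did the co-chaperone gene DNAJC3 (log2 fold change −0.13, edgeR adjusted p = 0.089). HSPA5 was named after its values were seen. Among the 17 mitochondrial synthetases 4 were higher and 2 lower, again beside 15.5% and 18.2% of all genes, led by FARS2 (0.43), IARS2 (0.18) and EARS2 (−0.14), with a median of 0.03. 2 of the 3 scaffold genes of the multisynthetase complex were higher, AIMP2 (log2 fold change 0.24, edgeR adjusted p = 0.000592) and AIMP1 (log2 fold change 0.18, edgeR adjusted p = 0.00605), beside the 4 complex enzymes that rose. EEF1E1, the third scaffold gene, did not pass (log2 fold change 0.08, edgeR adjusted p = 0.382), nor did TARS3, a second threonyl enzyme (log2 fold change −0.10, edgeR adjusted p = 0.27). EEF1E1 was named after its values were seen.

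**Figure D4:**
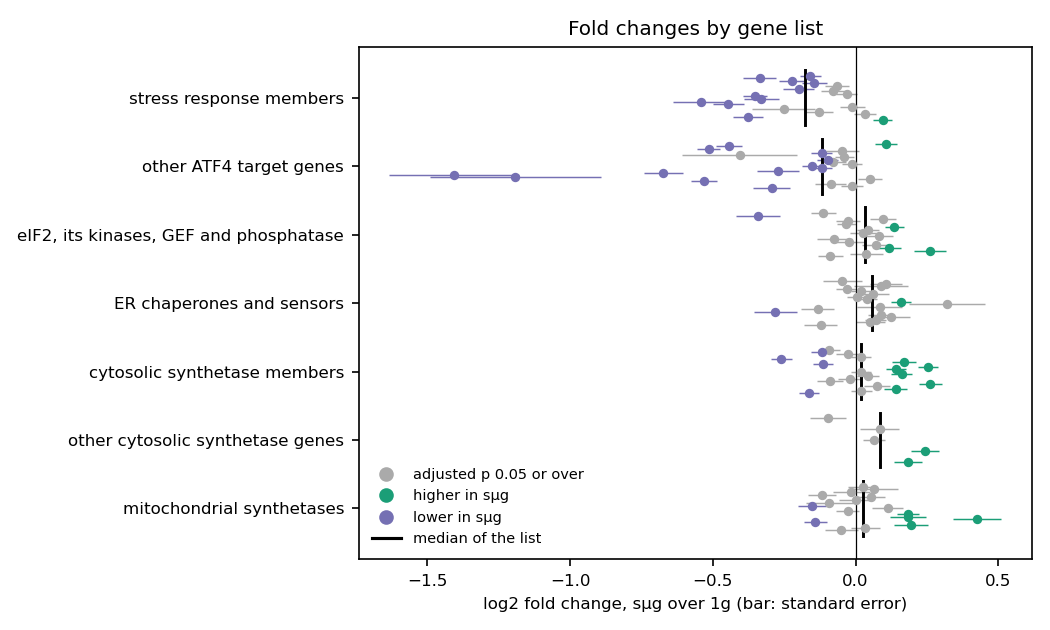
Log2 fold change of each tested gene, sµg over 1g, with its standard error from edgeR (bar) by gene list, green for an adjusted p under 0.05 and higher, purple for lower and grey for the rest; the black line is the median of the list. The medians of the stress response members and of the other ATF4 target genes lie left of 0 at −0.18 and −0.12, and those of the other 5 lists lie between 0.02 and 0.08.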

How the data were processed

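Poly(A) RNA of 3 sµg and 3 1g libraries was sequenced from a stranded kit. By the methods and the submitters' processing notes, the authors aligned reads with STAR 2.7.7a to GRCh38 with GENCODE 36 and quantified 60719 genes and 232184 transcripts with RSEM 1.3.3. The deposited values are expected counts, TPM and effective lengths for each gene and transcript; which of the STAR read filters the deposited version had is not stated. Gene symbols and positions were taken from GENCODE 44 on GRCh38 by gene identifier.

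Expected counts were rounded to whole numbers, genes were kept by filterByExpr (minimum 10, total 15), library sizes were adjusted with TMM factors, and the 2 groups were contrasted in edgeR 4.0.16 (R 4.3.3) with robust quasi-likelihood tests and Benjamini-Hochberg adjustment over the 16763 genes or 53807 transcripts kept, with 0.05 as the threshold. CPM values are TMM scaled. Alternatives used DESeq2 1.42.0, the tool of the study, and limma 3.58.1 on log2(TPM + 1) and log2(TPM + 0.1). The steps were tested on simulated data. No deposited sample column was left unused. Depth was 19971097 to 28506848 expected counts, and reads without molecular identifiers make any counting floor one of counting error only.

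The members and lists were chosen with earlier results of these data known. Named in full were stress response members that passed the test, ATF4 and DDIT3, the 6 synthetases with the smallest and the 2 with the largest adjusted p, and up to 4 genes with the smallest p of each other list, not all of which are reported here; promoters were shown for members with a motif before the start and a call. Transcripts were named where they held at least 5% of a gene or were called. The motif search used RefSeq promoters of GRCh38.p14.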

Additional observations from a re-analysis of the deposited data

How the results depend on the processing

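No member that passed the test changed sign under any alternative run, while the fold changes of CEBPG, HARS1, IARS1, SLC38A2 and VARS1, which did not pass, took the other sign in at least 1. ATF3, CHAC1, DDIT3, HERPUD1, SESN2, TRIB3 and SARS1 stayed lower, and FARSB, KARS1 and NARS1 higher, past the threshold in every alternative at that threshold. The 1 higher stress response gene, ASNS, became 0 with no filter on low counts, with the effective length offset, with the replicate block and at an adjusted p under 0.01, and 0 to 1 when a library was left out. The 10 lower stress response genes became 8 with DESeq2 and with the effective length offset, 6 with limma at either pseudocount, and 9 to 11 with a library left out. The 6 higher synthetases became 3 with the effective length offset and with limma at either pseudocount, and 5 to 7 with a library left out. The 4 lower synthetases became 2 with the effective length offset and at an adjusted p under 0.01, 1 with limma, and 2 to 4 with a library left out. The 1 AARS1 transcript called became 0 with limma, with the replicate block and with any library left out. The XBP1-202 difference of 1.24 percentage points was 1.98 by TPM and 0.562 to 1.86 with a library left out. The cause of these moves was not tested, except that leaving out a library leaves fewer samples.

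Over all genes 2591 were called higher and 3057 lower, against 3106 called in all with the effective length offset and 2954 or 2924 with limma. With DESeq2 3873 of 30862 genes were called, and with a library left out 4343 to 6191 genes. No scaling moved the median of all genes by 0.1. The methods call the controls matched but do not say that a replicate number marks a match, and the values showed no pairing by number: deviations of libraries with the same number correlated at −0.0366, 0.0359 and −0.0192, 2 of 6 libraries correlated best with their own number, and the block gave 5676 called genes. RSEM divides counts among transcripts that share most bases, and the AARS1-216 call rests on 18.6 to 50.7 counts in each sµg library.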
